A study of Mus musculus with 7 samples.

Results

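Sperm of a KDM1A transgenic mouse line was compared with sperm of ordinary C57BL/6 males, and 10 genes chosen from those that read higher in the line are described. These are Stx3, H2-Q5, Alppl2, Trnau1ap, Nrtn, Ass1, Rp1l1, Fndc5, Phf11b and C1qtnf9, out of 22154 genes measured by probe sets with a single gene symbol. A probe set is the group of probes on the array that reads one transcript. The genes were chosen by their measured values, as increases between the C57BL/6 array and TG3, nonTG3 or both, so their differences from C57BL/6 are a description and were not tested. They are not the only such genes: 4270 of 23493 probe sets read higher on every array of the line than on the C57BL/6 array. In 401 probe sets the lowest line array exceeded C57BL/6 by at least 0.38, the narrowest such gap among the genes. The tests over all probe sets below used limma, a linear model fitted to all 23493. The platform annotation gave the 10 genes 12 probe sets, and 11 of these read higher on every array of the line than on the C57BL/6 array. The exception was the other probe set of C1qtnf9.

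The study held 7 expression arrays of sperm RNA. TG3, with 3 arrays, were males of generation 3 that carried a KDM1A transgene, which had been passed down by heterozygous males mated to C57BL/6 females. Their wild-type littermates, called nonTG3, also had 3 arrays, and each array of both groups pooled RNA of 4 males. One array held C57BL/6 sperm pooled from 5 males. The construct had been injected into C57BL/6 zygotes and gave female founders, so all groups share this strain background, and nonTG3 males come from the same transgenic ancestry as TG3. The promoter that drives the transgene and the ages of the males were not given in the sources used here. TG3 and nonTG3 together are called the line below.

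Mature sperm make little or no new RNA, and most of what they carry is left over from the spermatids they came from or is gained on the way through the epididymis. Several of the genes are known from other tissues: Stx3 from membrane fusion in epithelia and neurons, Ass1 from arginine synthesis, and Fndc5 from muscle. The array reads the abundance of an RNA in a pool, so fewer cells of a type and less RNA per cell cannot be told apart.

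The label of sperm was checked against marker genes. All 9 measured markers of sperm and spermatids lay above the array median on every array, with a mean of 10.48 log2 units on the C57BL/6 array and 9.71 to 9.998 in the line. That gap came mostly from Tnp1 (-2.88, line minus C57BL/6) and Prm1 (-1.44), which package sperm DNA, while 2 of the 9 were higher in the line and the median difference was -0.34. Markers of other cells gave lower list means. Some read well above the array median on every array, such as Cd52 of leukocytes (8.24 to 9.64), Krt8 of epithelium (6.13 to 7.71) and Acta2 of muscle (6.15 to 8.47). In each of their lists 1 marker lay below the median on every array. Without a background level, the presence of markers near or below the median is not shown. Leukocyte markers (10 of 10 measured, 7 above the median on every array) averaged 4.53 in C57BL/6 and 4.19 to 4.91 in the line, and epididymal markers (8 of 10 measured, 6 above the median) 4.93 and 4.71 to 5.59. The line mean was higher for 9 of 10 leukocyte markers (median difference 0.14) and 8 of 8 epididymal markers (0.25). Lcn8 differed most among the epididymal markers (0.71), with all its values below the array medians. Sertoli and Leydig markers (9 of 10 measured, 4 above the median) averaged 5.10 in C57BL/6 and 3.70 to 4.17 in the line, without overlap. In that list Cst9 (-4.72), Cyp17a1 (-4.16) and Star (-1.02) were called lower by limma. So were Tnp1 and Prm1 of sperm and spermatids, while Lcn8 was called higher. Of the 9 Sertoli and Leydig markers 4 had a higher mean in the line, and the median difference was -0.13. Fibroblast, muscle and vessel markers (10 of 10 measured, 8 above the median) averaged 4.71 and 4.60 to 5.88, and a short list of neuron, retina and skeletal muscle markers (5 of 6 measured, 1 above the median) 3.08 and 3.09 to 3.16. Line means were higher for 10 of 10 fibroblast, muscle and vessel markers (median difference 0.52), against a median of 0.037 over all probe sets. Their list mean still lay below C57BL/6 on TG3 replicate 2. None of 7 erythroid markers was measured by a probe set with 1 symbol. Mitochondrially encoded RNAs averaged 11.24 in C57BL/6 and 8.80 to 11.55 in the line, with the lowest values on TG3 replicate 1 (8.80) and nonTG3 replicate 3 (8.91), then nonTG3 replicate 2 (9.98). The part of these markers in the differences of the 10 genes was not tested.

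**Figure D1:**
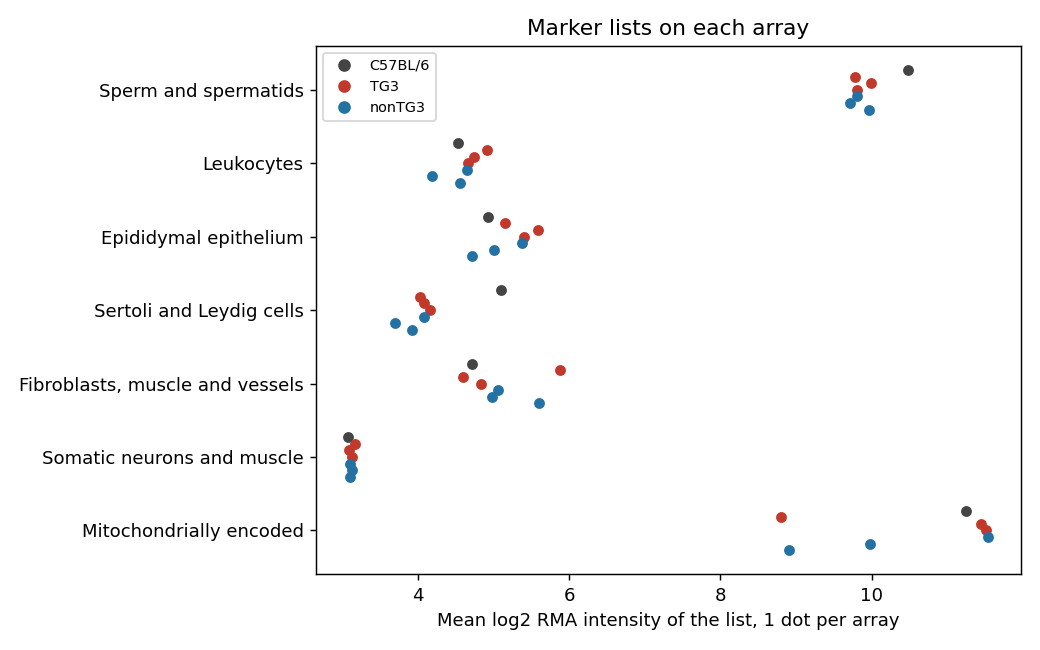
Mean log2 RMA intensity (horizontal axis) of each marker list on each array, 1 dot per array, coloured by group. The C57BL/6 dot lies above all line dots for sperm and spermatid markers (10.48 against at most 9.998) and for Sertoli and Leydig markers (5.10 against at most 4.17), with most of each gap from the few genes named in the text. For mitochondrially encoded RNA, 3 line arrays lie at 8.80, 8.91 and 9.98, below the other arrays.

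The promoters of the genes had no common sequence type. RefSeq promoter sequences (build GRCm38.p6) were found for 8 of the 10 genes, and the 250 bases before the annotated start were searched on both strands for the letters TATAAA of the TATA box, CCAAT of the CCAAT box, GGGCGG of the GC box and TGACGTCA of the cAMP response element, none of which contains another. GGGCGG was in 4 of the 8 (Trnau1ap, Nrtn, Ass1 and Fndc5) and in 42.9% of 20591 promoters of the genes tested. TATAAA was in 1 of the 8, Stx3, and in 11.3% of those 20591. CCAAT was in 0 of 8 and in 34.8%, and TGACGTCA in 0 of 8 and in 2.0%. The count of CG dinucleotides ran from 0 in Phf11b to 38 in Fndc5, and its median of 10 equalled that over the genes tested. Below are the ends of this range and the promoter of Stx3, the gene described first, with matches to the motifs in capitals. The Stx3 stretch is chr19:11819404-11819653, minus strand, that of Fndc5 chr4:129136749-129136998, plus strand, and that of Phf11b chr14:59341331-59341580, minus strand.
Stx3: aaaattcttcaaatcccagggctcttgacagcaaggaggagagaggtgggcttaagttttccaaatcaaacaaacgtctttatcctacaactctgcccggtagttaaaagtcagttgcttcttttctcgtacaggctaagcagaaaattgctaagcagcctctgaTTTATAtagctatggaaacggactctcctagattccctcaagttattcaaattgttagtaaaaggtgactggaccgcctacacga
Fndc5: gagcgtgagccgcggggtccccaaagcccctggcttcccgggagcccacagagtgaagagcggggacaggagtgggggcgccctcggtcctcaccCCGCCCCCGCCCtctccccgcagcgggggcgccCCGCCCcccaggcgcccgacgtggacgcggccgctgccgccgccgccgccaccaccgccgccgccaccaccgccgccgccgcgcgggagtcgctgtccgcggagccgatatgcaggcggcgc
Phf11b: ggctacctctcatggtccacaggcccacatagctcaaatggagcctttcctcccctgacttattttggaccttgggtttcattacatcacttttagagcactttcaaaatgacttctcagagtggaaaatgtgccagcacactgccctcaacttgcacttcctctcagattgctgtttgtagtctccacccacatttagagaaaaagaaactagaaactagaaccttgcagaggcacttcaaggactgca
The 3 stretches show how far the genes differ: Stx3 has a single TATAAA on the opposite strand and 6 CG dinucleotides, Fndc5 is 80.8% G or C with several GC boxes, and Phf11b has neither a match nor a CG. By RefSeq, Rp1l1, Phf11b and C1qtnf9 lie on chromosome 14, which holds 3.60% of the genes tested. H2-Q5 and Nrtn lie on chromosome 17 (4.86% of the genes tested) and Trnau1ap and Fndc5 on chromosome 4 (5.78%).

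All values are log2 intensities after RMA, the authors' background correction, normalization and summary, so 1 unit is a doubling of signal on the array. The median probe set lay at 3.52 on the C57BL/6 array and at 3.53 to 3.61 in the line. Whether values near or below the median lie above background was not measured, so a difference that starts there may not reflect the true fold. Over the 11 probe sets that read higher, the line mean exceeded the C57BL/6 value by 0.69 to 1.53, with a median of 0.84, against a median of 0.037 over all 23493 probe sets tested. The C57BL/6 array lay below all 6 arrays of the line in 11 of 12 probe sets of the genes and in 18.2% of all probe sets tested; since the rule used this contrast, nothing is read from the first count. The SD over the 6 arrays of the line ran from 0.04 for Fndc5 to 0.45 for Phf11b; the choice of genes that separate from C57BL/6 favours a low spread. The full range over all 7 arrays ran from 0.86 for Fndc5 to 2.17 for Phf11b, and in each of the 11 the C57BL/6 array was its lower end.

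**Figure D2:**
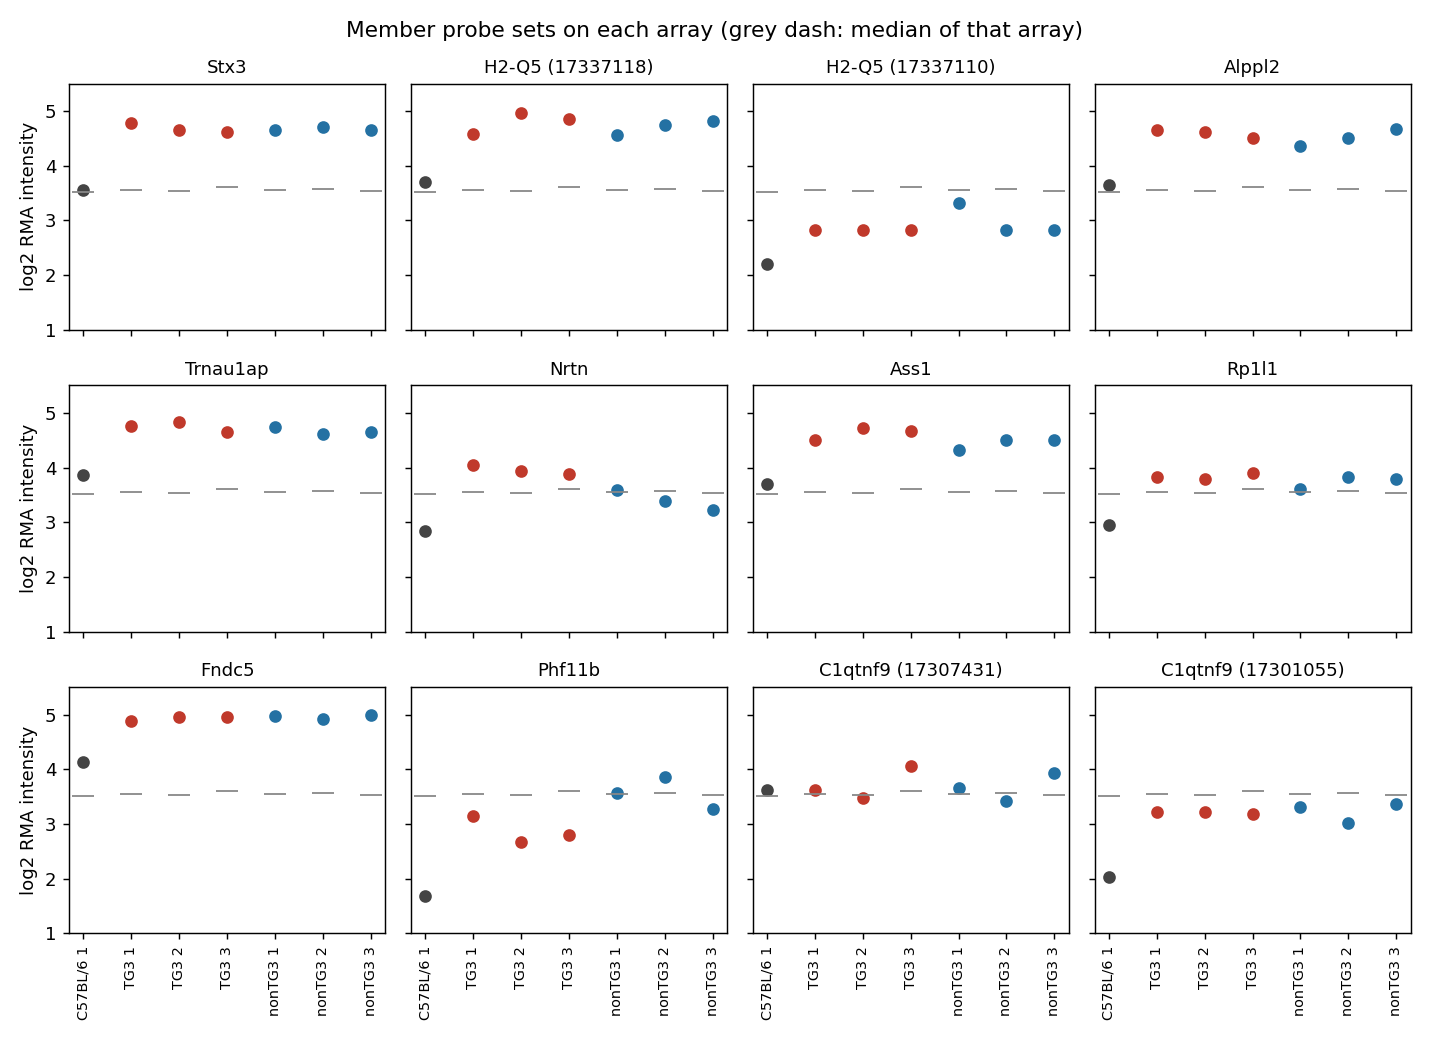
Log2 RMA intensity (vertical axis) of each of the 12 probe sets on each array (horizontal axis), black for C57BL/6, red for TG3 and blue for nonTG3; grey dashes mark the median of each array. The black dot is lowest in every panel except that of the C1qtnf9 probe set 17307431, where it lies at 3.63 among line values of 3.42 to 4.07.

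Stx3, a SNARE protein of the plasma membrane that vesicles fuse with, was at the array median in C57BL/6 and well above it in the line. It read 3.56 on the C57BL/6 array. The TG3 replicates 1, 2 and 3 read 4.78, 4.66 and 4.62, and those of nonTG3, in the same order (used for every gene below), 4.66, 4.70 and 4.66. The line values spanned 0.16 units and the step from C57BL/6 to the lowest of them was 1.05, the widest such gap among the genes. The mean of 4.68 ± 0.06 (SD, n = 6) was 2.17-fold the C57BL/6 signal. In rank, Stx3 went from the 51.1 percentile of the table in C57BL/6 to between 73.6 and 76.7 in the line. TG3 replicate 2 and nonTG3 replicates 1 and 3 had exactly equal values of 4.66, so the line held 4 distinct values on 6 arrays. RMA's median-based summary of the probes can return one number for several arrays, and tied arrays add nothing to the measured spread. Here and below, values within 1e-06 were counted as equal.

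H2-Q5 and Alppl2 are related to cell surface proteins. H2-Q5 lies in the Q region of the MHC, next to H2-Q4, and RefSeq lists it as a transcribed pseudogene of the class I genes, whose proteins display peptides to T cells. Its brighter probe set read 3.69 in C57BL/6, 4.57, 4.96 and 4.85 in TG3, and 4.57, 4.75 and 4.82 in nonTG3. All 6 line values were distinct and none fell within 0.87 of the C57BL/6 value. The mean was 4.75 ± 0.16 (SD, n = 6), 2.08-fold the C57BL/6 signal. Its dimmer probe set read 2.21 in C57BL/6, exactly 2.82 on 5 arrays of the line and 3.32 on nonTG3 replicate 1. That probe set thus had 2 distinct values in the line, all below the array median. Class I genes are close copies of each other, and how far either probe set reads a neighbour such as H2-Q4 remains unknown, as probe sequences were not used here.

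Alppl2, a placental-like alkaline phosphatase of early embryos and germ cells that is held to the membrane by a lipid anchor, read 3.65 in C57BL/6. It read 4.65, 4.61 and 4.50 in TG3 and 4.36, 4.50 and 4.67 in nonTG3. The groups of the line overlapped, TG3 replicate 3 and nonTG3 replicate 2 were exactly equal at 4.50, and the mean of 4.55 ± 0.12 (SD, n = 6) was 1.87-fold the C57BL/6 signal. Alpi and Akp3, the intestinal alkaline phosphatases that follow it on the chromosome, had differences between line and C57BL/6 of -0.096 and 0.017.

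Nrtn, Fndc5 and C1qtnf9 encode secreted factors or their precursors. Nrtn, neurturin, is a neurotrophic ligand of the GDNF family. It read 2.84 in C57BL/6, 4.04, 3.93 and 3.88 in TG3, and 3.58, 3.39 and 3.22 in nonTG3. Nrtn was the closest of the 11 to the edge of the rule: nonTG3 replicate 3 exceeded C57BL/6 by 0.38. The line averaged 3.67 ± 0.33 (SD, n = 6), 4 of its 6 values lay above the median of their array, and C57BL/6 lay 0.67 below its own.

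Fndc5, the membrane precursor of irisin, a factor released by muscle, had the lowest SD over the line among the genes. It read 4.14 in C57BL/6, 4.89, 4.95 and 4.96 in TG3, and 4.97, 4.92 and 5.00 in nonTG3. The line spanned 0.11 units, with 6 distinct values, and averaged 4.95 ± 0.04 (SD, n = 6), 1.75-fold the C57BL/6 signal. In rank it moved from the 63.4 percentile to between 78.6 and 80.4.

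C1qtnf9, a secreted C1q and TNF related protein made in fat and heart, had a pair of probe sets, and they disagreed. One read 2.04 in C57BL/6, 3.21, 3.21 and 3.19 in TG3, and 3.31, 3.02 and 3.37 in nonTG3, all below the array medians and with TG3 replicates 1 and 2 exactly equal. The other read 3.63 in C57BL/6, 3.63, 3.48 and 4.07 in TG3, and 3.66, 3.42 and 3.93 in nonTG3. In the second, 3 of the 6 line arrays lay above C57BL/6 and TG3 replicate 1 equalled it exactly, so it fell outside the rule. The line minus C57BL/6 differences were 1.18 and 0.069.

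Trnau1ap and Ass1 act inside the cell. Trnau1ap binds the selenocysteine tRNA and takes part in making selenoproteins. It read 3.86 in C57BL/6, 4.76, 4.83 and 4.65 in TG3, and 4.74, 4.60 and 4.65 in nonTG3. TG3 replicate 3 and nonTG3 replicate 3 were exactly equal, and the mean of 4.70 ± 0.09 (SD, n = 6) was 1.80-fold the C57BL/6 signal. Ass1, argininosuccinate synthase of the urea cycle, read 3.70 in C57BL/6, 4.51, 4.73 and 4.66 in TG3, and 4.32, 4.51 and 4.51 in nonTG3. Its value of 4.51 was exactly shared by TG3 replicate 1 and nonTG3 replicates 2 and 3, which left 4 distinct values. The mean of 4.54 ± 0.14 (SD, n = 6) was 1.79-fold the C57BL/6 signal.

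Rp1l1, a doublecortin domain protein of the photoreceptor axoneme, crossed the median: it read 2.95 in C57BL/6, 3.82, 3.80 and 3.90 in TG3, and 3.61, 3.82 and 3.80 in nonTG3. Each line value lay above its array's median, by 0.062 to 0.29, TG3 replicate 2 and nonTG3 replicate 3 were exactly equal, and the mean was 3.79 ± 0.10 (SD, n = 6). Phf11b, a PHD finger protein, had the largest difference and the widest spread. It read 1.69 in C57BL/6, at the 12.3 percentile, then 3.15, 2.67 and 2.80 in TG3, and 3.56, 3.86 and 3.28 in nonTG3. The line averaged 3.22 ± 0.45 (SD, n = 6), and nonTG3 replicates 1 and 2 alone lay above their array medians. Of all 23493 probe sets, 4 had a line minus C57BL/6 difference as large as that of Phf11b, itself included, and 47 had one of at least 1 unit.

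Level and ties differed among the genes. On the C57BL/6 array 6 of the 11 probe sets lay above the median and 5 below it. In the line, 7 lay above the median on all 6 arrays, 2 on some arrays (Nrtn and Phf11b) and 2 on none (the dimmer H2-Q5 probe set and the dimmer one of C1qtnf9). Of the 11, 3 had at most 4 distinct values across the line: Stx3, the dimmer H2-Q5 probe set and Ass1. This is 27.3%, against 30.9% of all probe sets tested.

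TG3 against nonTG3 asks whether these RNAs followed the transgene among littermates, a contrast that the joint reading of the line against C57BL/6 does not use. Some genes were chosen from TG3 or nonTG3 alone against C57BL/6, and for these the contrast is not independent of the choice. The counts and medians below are therefore a description. No probe set of the genes passed the test. In simulated data 53% of changes of 1 unit were recovered for this contrast, so a change of that size can be missed. The simulation planted many changes at once in noise without ties, so this rate need not hold here. Over the whole table of 23493 probe sets limma called 0 (0%), and its lowest adjusted p was 0.923. At an unadjusted p under 0.05 it found 559, 2 of them among the 11. The 11 differences had a median of 0.077, with 7 means higher in TG3 and 4 higher in nonTG3, against a median of 0.0045 over all probe sets. Stx3 differed by 0.012 (95% confidence interval -0.18 to 0.21) and Fndc5 by -0.029 (-0.21 to 0.15). For Alppl2 and Trnau1ap the differences were 0.077 (-0.19 to 0.35) and 0.082 (-0.14 to 0.30). That of Ass1 was 0.18 (-0.065 to 0.43). The signs for Stx3, Fndc5 and C1qtnf9 turned when some arrays were left out.

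Nrtn and Phf11b separated the groups, in opposite directions. Nrtn averaged 3.95 ± 0.08 (SD, n = 3) in carriers and 3.40 ± 0.18 (SD, n = 3) in their littermates, a difference of 0.55 (95% confidence interval 0.26 to 0.84). Phf11b averaged 2.88 ± 0.25 (SD, n = 3) in carriers and 3.57 ± 0.29 (SD, n = 3) in their littermates, a difference of -0.69 (-1.18 to -0.20). Neither passed over all probe sets (limma adjusted p = 0.923 for both), and a two-sided exact permutation test gave p = 0.1 for each, the smallest that 3 against 3 allows. Groups did not overlap in 2 of the 11 probe sets and in 4.12% of all probe sets tested. Nrtn had entered the list from TG3 against C57BL/6 and Phf11b from nonTG3 and the line against C57BL/6, so this separation is not independent of the choice. Without TG3 replicate 1 and nonTG3 replicate 3, the differences were 0.42 for Nrtn and -0.97 for Phf11b.

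**Figure D3:**
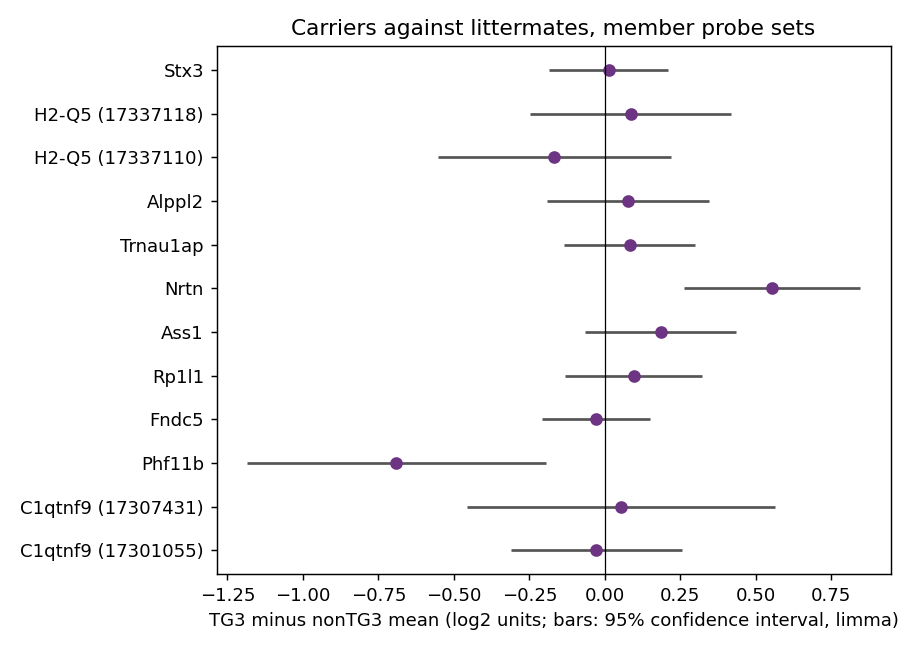
Difference between the TG3 and nonTG3 means (horizontal axis, log2 units) for each of the 12 probe sets, with bars for the 95% confidence interval from limma. The intervals of Nrtn (0.26 to 0.84) and Phf11b (-1.18 to -0.20) leave out 0 before adjustment, and those of the other 10 probe sets include it.

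Relatives of each gene in its family or pathway were then compared between the line and C57BL/6. These lists were drawn from families or pathways and were not picked by their differences, although calls in earlier results of these data were known, that of C1ql4 among them. They are not complete: that of the Phf11 family left out Phf11, which is given below. Of 166 listed relatives 152 were measured. limma called 1 of them higher, where 0.17% of all probe sets were called higher, and 2 lower, where 2.85% were. Their median difference was 0.038, close to the 0.037 over all probe sets, and the C57BL/6 array lay below the whole line in 34 of the 152 (22.4%), against 18.2% of all probe sets. The C57BL/6 arm is 1 pool, assumed to vary like the other arrays, so its own spread between pools is not in these p-values. In simulated data the fit recovered 28% of changes of 1 unit between line and C57BL/6, so a relative not called may still differ. None of the 3 calls held each time 1 line array was left out. The differences then stayed at -1.20 to -1.12 for Selenow, -1.89 to -1.71 for Txnrd3 and 0.81 to 0.89 for C1ql4. Such a fit also has fewer arrays, so a lost call does not point to the array left out. Without TG3 replicate 1, Stx4a, a syntaxin of the plasma membrane, was the 1 relative called (0.94 higher, limma adjusted p = 0.0263), named here after its values were seen.

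Around Stx3, 0 of 33 syntaxins, other SNAREs and binding proteins were called, with a median of 0.071. Stxbp2, a syntaxin-binding protein of exocytosis, read 6.26 in C57BL/6 and averaged 6.59 ± 0.24 (SD, n = 6) over the line, and Stx2, a syntaxin of the plasma membrane, 6.14 and 6.34 ± 0.19 (SD, n = 6). In both, line arrays lay on either side of the C57BL/6 value. Of 20 class I MHC genes and their partners 0 were called, with a median of 0.063. H2-K1, a classical class I chain, read 6.20 in C57BL/6 and 6.34 to 7.51 in the line (limma adjusted p = 0.344), and B2m, the shared light chain, 10.98 and 10.58 to 11.86. The 3 other alkaline phosphatases had differences of -0.096 to 0.017 and 0 were called. Alpi read 4.24 in C57BL/6 and averaged 4.14 ± 0.33 (SD, n = 6) over the line, and the tissue-nonspecific Alpl 3.68 and 3.64 ± 0.09 (SD, n = 6).

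Among 30 genes of selenoprotein synthesis and selenoproteins, 2 fell in the line, the opposite direction to Trnau1ap, and the median was -0.041. Selenow, a small selenoprotein, fell from 7.66 to 6.51 ± 0.12 (SD, n = 6), 2.23-fold (limma adjusted p = 0.0197). It was not called without TG3 replicate 1 or any 1 of the nonTG3 arrays (adjusted p of 0.0535 to 0.0715). Txnrd3, a thioredoxin reductase of the testis, fell from 5.08 to 3.25 ± 0.30 (SD, n = 6), below the array median (limma adjusted p = 0.0478). It kept its call without TG3 replicate 3 and lost it without each of the other 5 arrays (adjusted p of 0.0930 to 0.129), on repeated quantile normalization (0.0525) and over all probe sets of the table (0.0561), while its difference stayed between -1.89 and -1.71.

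Of 9 GDNF family ligands and receptors 0 were called, with a median of 0.025. Gfra2, the receptor that binds Nrtn, read 6.14 in C57BL/6 and averaged 6.12 ± 0.26 (SD, n = 6) over the line, and the related ligand Artn 3.91 and 4.60 ± 0.33 (SD, n = 6; limma adjusted p = 0.522). Of 20 genes of the urea cycle and arginine metabolism 0 were called, with a median of 0.11. Azin2, an antizyme inhibitor of the testis, read 7.59 and 8.13 ± 0.28 (SD, n = 6), with all line arrays above C57BL/6, and Odc1, of polyamine synthesis, 6.34 and 6.14 ± 0.26 (SD, n = 6). Differences in this list ran from -1.57 for Gatm to 0.71 for Nos1, both named after their values were seen. Gatm read 3.94 in C57BL/6 and averaged 2.37 ± 0.28 (SD, n = 6) over the line, below the array median. Gatm was called lower when the values were normalized again by quantiles (-1.59), median centring (-1.61) or cyclic loess (-1.64). Of 9 doublecortin domain genes 0 were called (median 0.10): Dcdc2c read 4.77 and 4.96 ± 0.26 (SD, n = 6), and the kinase Dclk1 4.19 and 4.50 ± 0.43 (SD, n = 6).

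Of 10 other genes named Fndc 0 were called (median -0.033). Fndc8 read 6.14 in C57BL/6 and averaged 5.94 ± 0.46 (SD, n = 6) over the line, and Fndc3a 6.08 and 5.69 ± 0.16 (SD, n = 6). Of 3 other Phf11 family genes beside Phf11b on chromosome 14, 0 were called: Phf11a read 2.91 and 3.26 ± 0.45 (SD, n = 6), Phf11d 2.60 and 2.49 ± 0.20 (SD, n = 6), and Phf11c 1.93 and 1.63 ± 0.19 (SD, n = 6). Phf11, a neighbour that the list left out, read 1.49 and 2.04 ± 0.22 (SD, n = 6). All its values lay below the array medians, and every line array lay above C57BL/6. Rcbtb1, the next gene along, read 4.30 and 4.19 ± 0.44 (SD, n = 6). None of these genes was tested against Phf11b. Of 15 C1q and TNF related genes limma called only C1ql4, a C1q-like protein, which rose from 2.35 to 3.20 ± 0.12 (SD, n = 6). All its values lay below the array medians, and the call was kept without nonTG3 replicate 1 and lost without each of the other 5 arrays (adjusted p of 0.0797 to 0.121). It was also lost on repeated quantile normalization (0.0560), over all probe sets (0.0535) and with robust eBayes (0.0502), at differences of 0.78 to 0.89 over all alternatives. The list's median was 0.14. C1qtnf1, named after its values were seen, was called higher with a trend in eBayes (0.72) and with weights on the arrays (0.69).

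**Figure D4:**
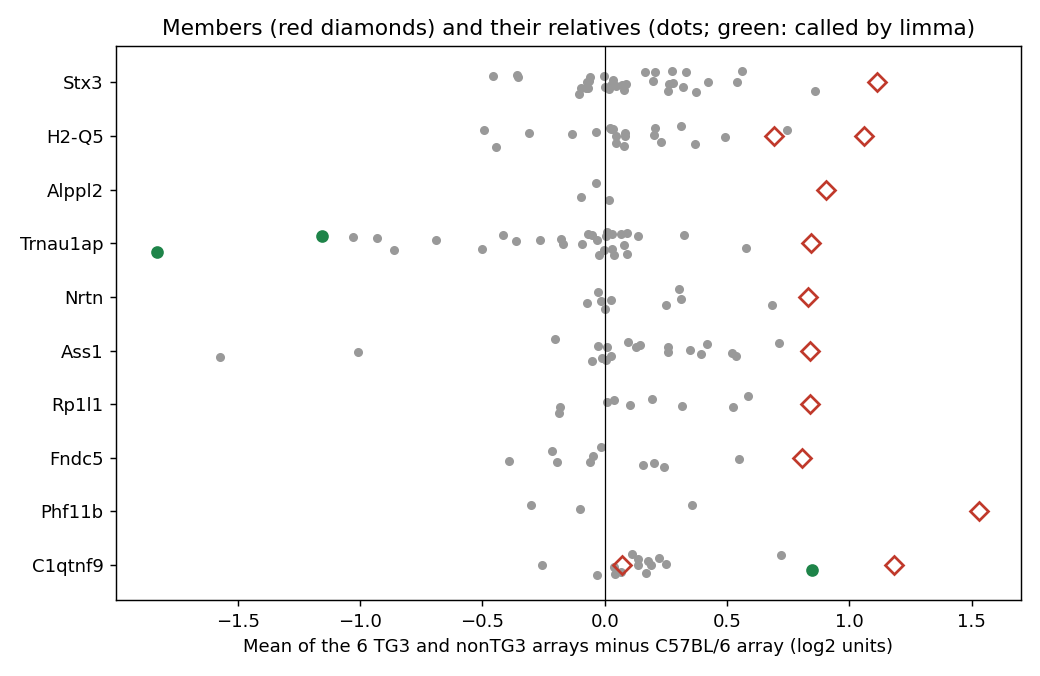
Mean of the 6 line arrays minus the C57BL/6 array (horizontal axis, log2 units) for each gene's probe sets (red diamonds) and for its measured relatives (dots, spread vertically for sight; green where limma called them). Most relatives lie near 0, with Txnrd3 and Selenow called at -1.83 and -1.16 in the row of Trnau1ap and C1ql4 at 0.85 in that of C1qtnf9.

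The profile of Stx3 over the 7 arrays was most like those of Casp12 (Pearson r = 0.998), Mal2, Olfr551, Cdcp2 and Gpr135 (r of 0.994 to 0.998). Casp12, an inflammatory caspase, read 2.11 in C57BL/6, 2.41 on TG3 replicate 1 and exactly 2.39 on the other 5 arrays. Each of the 5 had this form, a lower C57BL/6 array and ties elsewhere, with line minus C57BL/6 differences of 0.12 to 0.37. With 1 array apart from 6, r mainly records that step, and it is given with no test. Among the other genes of the set, r with Stx3 ran from 0.739 for Nrtn to 0.975 for Fndc5, and was 0.051 for the other probe set of C1qtnf9.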

How the data were processed

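Sperm RNA was labelled with an Affymetrix whole-transcript kit, per the labels' protocols. The deposited log2 values were made by the authors with RMA; R 3.1.0, oligo and limma are also named in the submitters' processing notes. Filters, scan batches and a genome build were not given in the sources used here. Of 33604 probe sets, the 23493 with 1 symbol in the platform annotation were tested. Precision is limited by the number of arrays, which carry no depth. Whether pools share males is not in the labels, so p-values reflect only how these pools vary.

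limma 3.58.1 in R 4.3.3 fitted a mean per group to all 7 arrays, with eBayes and Benjamini-Hochberg adjustment over all 23493; calls had an adjusted p under 0.05. The lone C57BL/6 array is assumed to vary like the others. The steps were tested on simulated data. There, 53% of changes of 1 log2 unit were recovered for TG3 against nonTG3 and 28% for the line against C57BL/6. Many changes were planted at once in noise without ties, so neither rate need hold for these arrays. The genes and lists were chosen with earlier results of these data known. Named were the 10 genes; of each list of relatives, each read by its probe set of highest mean, the called genes or else the 2 of highest mean; and the 5 profiles most like Stx3, without predicted or clone names. Figures were drawn with matplotlib 3.10.9.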

Additional observations from a re-analysis of the deposited data

Results flagged for a closer look

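On the 6 arrays of the line, nonTG3 replicate 1 stood apart in 2 of the 12 probe sets, by Dixon's test at its 95% critical value. It read 3.32 for the dimmer H2-Q5 probe set, where the other 5 arrays were exactly equal at 2.82. It read 3.61 for Rp1l1, below the other 5 arrays, which lay between 3.80 and 3.90. Chance flags about 1 in 20 groups, a rate that does not hold for H2-Q5, where with 5 tied values any departure of the sixth array would stand apart.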

How the results depend on the processing

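The line minus C57BL/6 differences of the 11 probe sets were 0.879 to 1.06 times the reported value over the 10 alternatives run for them; their direction is fixed by the choice of genes when line arrays are left out. For TG3 against nonTG3, limma called 0 probe sets under every alternative, including a block by replicate number (0 calls). Whether equal numbers mark matched pools is not in the labels. Same-numbered deviations from the group means had correlations of -0.449, 0.0159 and -0.403. With 3 arrays per group these cannot settle whether the numbers pair the samples. An alternative left out TG3 replicate 1 and nonTG3 replicate 3, the arrays of lowest mitochondrial RNA, called both arrays here. It kept nonTG3 replicate 2, which was also low. The sign of a difference between TG3 and nonTG3, none of them called, turned for Stx3 and Fndc5. Stx3 stood at -0.043 without both arrays and at -0.035 to 0.047 with 1 array left out, and Fndc5 at 0.012 without both arrays. It also turned for the dimmer C1qtnf9 probe set (0.037 without both arrays; -0.14 to 0.041 with 1 left out) and the brighter one (-0.12 to 0.19 with 1 left out). The count of 3 calls among relatives was 1 over all probe sets of the table, 1 over the brighter probe sets (mean not under the median), 5 at an adjusted p under 0.10, 0 without both arrays of low mitochondrial RNA, and 0 to 3 with 1 array left out, not always the same genes. The cause was not tested beyond the smaller or larger sets these alternatives use. Gatm and C1qtnf1 were each called under some of the alternatives not listed here. Signal over background was not measured, which limits every value near or below the array median.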
